A study of Mus musculus with 6 samples.

Results

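The RNA interference machinery was examined as 10 genes that were chosen by their function. They encode the nuclear microprocessor (Drosha and Dgcr8), the export receptor Xpo5, the cytoplasmic dicing complex (Dicer1 and Tarbp2), the 4 Argonaute proteins (Ago1 to Ago4) and the double-stranded RNA dependent protein kinase PKR (Eif2ak2). All 10 genes passed the filter on dim signal and were read by 14 probes, out of 16490 genes and 42126 probes tested. RNA was from neuro2a cells, a mouse neuroblastoma line, on 6 single-colour Agilent arrays. In the labels 3 arrays are "Vector KD", cells transfected with the empty vector (control), and 3 are "NFYA and NFYC KD", cells transfected with RNAi vectors against Nfya and Nfyc (knockdown), which encode subunits of NF-Y, a transcription factor that binds CCAAT boxes. Per the study's methods, the cells were transiently transfected, and the knockdown vectors are of the EmGFP-miR type, in which a hairpin built like a microRNA precursor lies behind a fluorescent reporter. Whether the empty vector also gives a hairpin is not stated in the sources used here. Loss of NF-Y and production of hairpins against it cannot be told apart in this comparison.

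In RNA interference, Drosha with its partner Dgcr8 cuts a hairpin out of a long primary transcript in the nucleus, Xpo5 carries it to the cytoplasm, and Dicer1 with Tarbp2 trims it to a duplex. One strand is then held by an Argonaute protein and guides it to matching mRNAs. Ago2 is the Argonaute best known for cutting its target. Eif2ak2 belongs to a separate response, in which double-stranded RNA activates the kinase to phosphorylate eIF2 alpha and lower protein synthesis, and its own gene is induced by interferon. Vectors of the kind used here enter the pathway at the Drosha step, so these genes encode the proteins that turn such a hairpin into a silencing complex.

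Promoter sequences of 9 of the 10 genes were found in the RefSeq table of GRCm38.p6, in windows of 300 bases that run from 250 bases before the annotated start to 50 bases after it. No window was found for Ago2. CCAAT, the box bound by NF-Y, was searched with its reverse complement ATTGG. It was found in 5 of the 9 genes, and 37.4% of all 32851 windows hold it at least once. Drosha and Tarbp2 had 3 boxes each and Dgcr8 had 4, against 3.37% of all windows with 3 or more and 1.06% with 4 or more. Dicer1 had 1 box, 171 bases upstream of its start, and Ago1 had 1 box, shared by its 2 overlapping windows. Xpo5, Ago3, Ago4 and Eif2ak2 had none. The stretches below show the microprocessor genes, which carry the boxes, beside Eif2ak2, the gene with the largest change and no box. They lie at chr15:12824565-12824803 on the plus strand for Drosha, at chr16:18289252-18289418 on the minus strand for Dgcr8 and at chr17:78882573-78882822 on the minus strand for Eif2ak2. Each is read 5′ to 3′ on the strand of its gene, with CCAAT and ATTGG in capitals.

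Drosha: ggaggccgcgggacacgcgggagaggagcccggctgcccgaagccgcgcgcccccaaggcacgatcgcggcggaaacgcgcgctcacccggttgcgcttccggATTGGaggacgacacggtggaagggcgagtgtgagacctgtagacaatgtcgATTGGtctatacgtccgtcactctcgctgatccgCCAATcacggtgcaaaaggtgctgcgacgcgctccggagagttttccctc
Dgcr8: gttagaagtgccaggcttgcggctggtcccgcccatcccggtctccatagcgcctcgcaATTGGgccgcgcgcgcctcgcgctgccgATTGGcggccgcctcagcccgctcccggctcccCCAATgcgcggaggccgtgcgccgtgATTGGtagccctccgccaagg
Eif2ak2: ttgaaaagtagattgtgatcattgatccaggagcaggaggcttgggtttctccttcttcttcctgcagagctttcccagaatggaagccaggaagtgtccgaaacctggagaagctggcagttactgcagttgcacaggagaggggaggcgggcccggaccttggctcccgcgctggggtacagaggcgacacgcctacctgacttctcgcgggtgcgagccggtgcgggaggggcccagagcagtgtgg

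The Drosha boxes began 147, 95 and 61 bases upstream of its start, and those of Dgcr8 began 191, 163, 130 and 104 bases upstream. The Eif2ak2 window held 1 match to GAAA, any 2 bases and GAAA again, the letters recognised by interferon regulatory factors, which were searched on both strands and found in 3.44% of all windows. It is shown in capitals in the stretch from base 9 to base 38 after the annotated start.

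Eif2ak2: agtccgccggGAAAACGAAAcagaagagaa

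A match is a description of the letters in a window, and binding of any factor was not measured here.

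The knockdown itself was read at Nfya and Nfyc before any other gene. The log2 level is the processed signal on the log2 scale minus the 75th percentile of its array, so that 0 is the 75th percentile. Nfya fell by 0.76 on this scale (SE 0.055, limma adjusted p = 0.00128). Nfyc fell by 1.81 and 1.8 at its 2 probes (SE 0.045 and 0.052, limma adjusted p = 0.000323 for each). All 17 neuroblastoma and neuronal markers, Hand2, Th, Mycn and Dbh among them, were well above background on all 6 arrays. Of the 17, Th (-0.62, limma adjusted p = 0.00154) and Mycn (-0.69, limma adjusted p = 0.00488) were called lower in knockdown cells. By the limma adjusted p alone, 3 passed upward, Gata2 (0.56), Isl1 (0.49) and Gata3 (0.22), and 4 passed downward. The median change of these markers was 0.059. Of the fibroblast markers, Lum did not rise well above background anywhere, and the summed signals of the fibroblast and of the immune markers overlapped between the groups. Single markers in them differed, with Pdgfra called higher (1.29) and Col1a1 called lower (-0.77) among the fibroblast markers and Ptprc at -0.52 (limma adjusted p = 0.0236) among the immune markers. The summed signal of 5 glial markers, 4 of which were well above background on all 6 arrays, was 838 to 879 intensity units on control arrays and 568 to 603 on knockdown arrays, and the part of these markers in the results below was not tested. The share of spots well above background was 61.9% to 66.2% per array. The 3 control arrays and knockdown array 1 lay in row 1 of the slide and knockdown arrays 2 and 3 in row 2, so that values with row as a block rest on the arrays of row 1. The labels do not say whether replicates came from separate cultures, so p-values measure the spread between these samples, which may be technical.

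Among the 10 genes, only Eif2ak2 was called higher in knockdown cells and none was called lower, where called means that the limma adjusted p was under 0.05 with more than a 1.5-fold change. Over all genes 8.90% were called, 3.91% higher and 5.0% lower. These counts read each gene from its brightest probe. Without the minimum fold, 4 of the 10 passed the adjusted p, Eif2ak2, Ago2 and Xpo5 upward and Drosha downward, against 31.5% of all genes, 15.7% upward and 15.8% downward. The knockdown arrays lay above all control arrays for 5 of the 10 genes, against 27.7% of all genes, and below them for 1, against 27.1%. These 6 genes without overlap stand beside 54.7% of all genes. The median change of the 10 genes was 0.067 on the log2 scale, and that of all genes was 0.0053. At the brightest probe of 9 of the 10 genes the 95% interval of the change lay within 0.585 in either direction, which is the log2 of the minimum fold. The intervals of the second Ago1, Ago2 and Ago4 probes reached past it. All 14 probes were well above background on all 6 arrays, and none was saturated. In a bulk sample, a lower level in every cell and fewer cells with the transcript cannot be told apart.

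**Figure D1:**
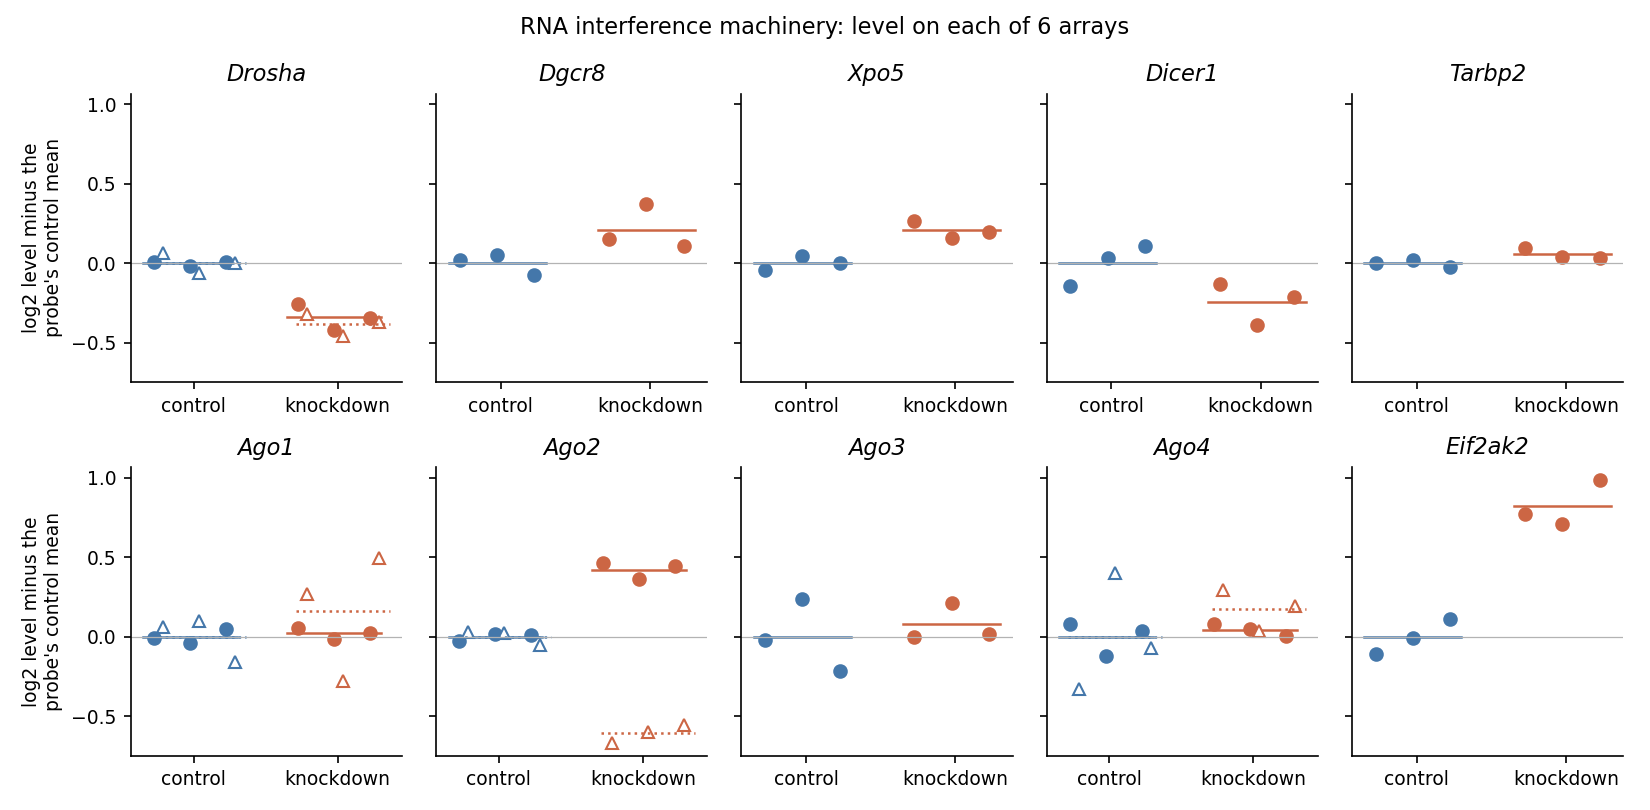
Log2 level of each gene on each of 6 arrays, minus the mean of the probe's control arrays, for the 3 control arrays (blue) and the 3 knockdown arrays (orange); circles are the brightest probe of a gene, open triangles its other probe, and lines the group means. Eif2ak2 stands apart upward, Drosha lies lower at both probes, and the probes of Ago2 move in opposite directions.

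Of the microprocessor, neither gene was called, and Drosha passed the adjusted p downward while Dgcr8 did not pass. Drosha encodes the nuclease that cuts primary microRNA transcripts. Its brightest probe (A_55_P2039603) had log2 levels of 4.08, 4.05 and 4.07 on the control arrays and 3.81, 3.65 and 3.72 on the knockdown arrays. Every knockdown array lay below every control array, by at least 0.24. The change was -0.34 (SE 0.056, 95% interval -0.48 to -0.20, limma adjusted p = 0.0124), which is 1.27-fold lower. The other Drosha probe (A_55_P2039601) had levels of 3.51, 3.38 and 3.45 against 3.13, 2.99 and 3.08. Both probes thus gave a decrease of similar size, and the second changed by -0.38 (SE 0.060, limma adjusted p = 0.0111). Neither reached the minimum fold. With slide row as a block the changes were -0.26 and -0.32, and neither passed (limma adjusted p = 0.0961 and 0.102). Without knockdown replicate 3, the change at the brightest probe was -0.34 with a limma adjusted p of 0.0509.

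Dgcr8 encodes the RNA-binding partner that holds the hairpin for Drosha. Its levels were 1.21, 1.24 and 1.11 on the control arrays and 1.34, 1.56 and 1.29 on the knockdown arrays. The knockdown arrays were all above the control arrays, but the closest pair was only 0.056 apart. The difference was 0.21 (SE 0.087, 95% interval -0.01 to 0.43) with a limma adjusted p of 0.155. Dgcr8, with the most CCAAT boxes among the 9 genes with a window, had a value above 0 that did not pass. Drosha with 3 boxes had a change below 0. A link between boxes and change was not tested.

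Xpo5, the receptor that carries precursor hairpins through the nuclear pore, was slightly higher in knockdown cells. Its levels were 2.60, 2.69 and 2.65 on the control arrays and 2.91, 2.81 and 2.84 on the knockdown arrays. The groups did not overlap. The change of 0.21 (SE 0.051, 95% interval 0.08 to 0.34) passed the limma adjusted p at 0.0413 but was only 1.16-fold. With each array scaled by its median the value was 0.091 (limma adjusted p = 0.529). The change passed in 9 of 19 other fits and in none of the 6 that left out an array, where the limma adjusted p reached 0.121 without control replicate 1.

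Of the dicing complex, neither gene passed the test. Dicer1 encodes the nuclease that cuts the exported hairpin. Its levels were 0.25, 0.43 and 0.50 on the control arrays and 0.26, 0.00 and 0.18 on the knockdown arrays, and the groups overlapped because control array 1 lay within the range of the knockdown arrays. The difference was -0.24 (SE 0.10, 95% interval -0.50 to 0.01, limma adjusted p = 0.150). Tarbp2, a double-stranded RNA binding protein that assists Dicer and can hold PKR inactive, had levels of 5.58, 5.59 and 5.55 against 5.67, 5.61 and 5.61. Although these groups did not overlap, the difference was 0.056 (SE 0.042, 95% interval -0.05 to 0.16, limma adjusted p = 0.406). The interval of this difference lay within a 1.5-fold change in either direction. The Tarbp2 window holds 3 CCAAT boxes, and a link between boxes and change was not tested.

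**Figure D2:**
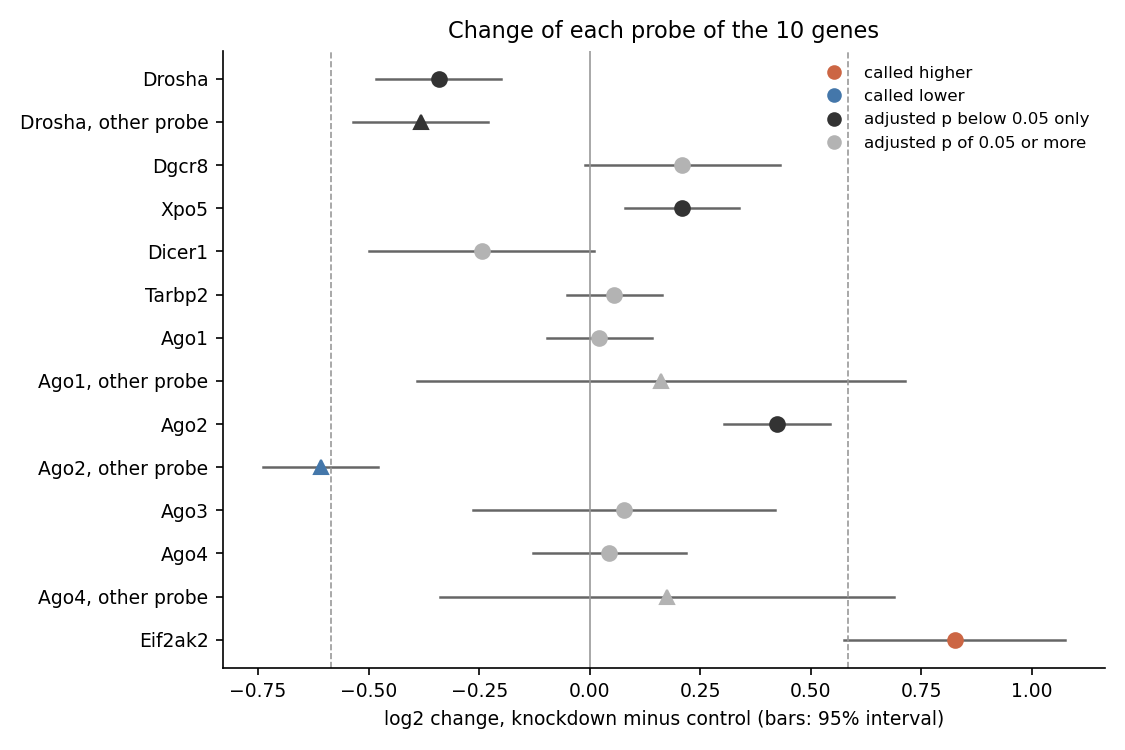
Change of each of the 14 probes, knockdown minus control on the log2 scale, with its 95% interval (bar); circles are the brightest probe of a gene and triangles its other probe, and dashed lines mark a fold change of 1.5. Eif2ak2 and the second Ago2 probe are past the lines, in opposite directions.

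Among the Argonautes, Ago2 differed between the groups in both of its probes and in opposite directions. The brightest Ago2 probe (A_51_P180001) had processed signals of 7009, 7046 and 7177 intensity units on the control arrays and 9737, 8727 and 9398 on the knockdown arrays. As log2 levels these were 3.22, 3.26 and 3.25 against 3.70, 3.60 and 3.69, with all knockdown arrays above the controls. The change was 0.42 (SE 0.047, 95% interval 0.30 to 0.54, limma adjusted p = 0.00402), or 1.34-fold, which is under the minimum fold, and with median scaling it was 0.31 (limma adjusted p = 0.0744). The second probe (A_55_P2002133) had processed signals of 2058, 2003 and 1942 on the control arrays and 1259, 1265 and 1326 on the knockdown arrays. Its log2 levels were 1.45, 1.44 and 1.37 against 0.75, 0.82 and 0.86, and here all knockdown arrays lay below the controls. This probe was called lower, with a change of -0.61 (SE 0.051, 95% interval -0.74 to -0.48, limma adjusted p = 0.00183), or 1.52-fold. Over all probes 3.82% were called lower and 3.35% higher.

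The log2 difference between the Ago2 probes was 1.77, 1.82 and 1.89 on the control arrays and 2.95, 2.79 and 2.83 on the knockdown arrays. It was 1.82 ± 0.060 (SD, n = 3) on control arrays and 2.85 ± 0.086 (SD, n = 3) on knockdown arrays. The probes therefore moved apart by 1.03, or 2.04-fold, and no control array reached a knockdown array. The two-sided exact permutation p was 0.1, the smallest that the 20 assignments of 6 arrays allow, and 0.4 after Benjamini-Hochberg adjustment over the 4 genes with a pair of probes. The same pairwise difference moved by 0.041 for Drosha, -0.14 for Ago1 and -0.13 for Ago4, with exact permutation p values of 0.3, 0.6 and 0.7. Of 3662 genes with several probes well above background on all 6 arrays, 18 (0.492%) had 1 probe called and another past the adjusted p in the opposite direction, and Ago2 was one of these. The part of the Ago2 transcript that each probe reads was not analysed here, so no direction is given for the gene as a whole, and the mean of both probes differed by -0.093 (SE 0.033, limma adjusted p = 0.0774). The second probe was past the adjusted p in all 18 other fits that give single probes and was called in 14 of them. It was not called without knockdown replicate 1, where the change was -0.58, or with quantile normalization, where it was also -0.58. With normexp background correction the probe was not called either. Its change was then -0.52 with the 75th percentile and -0.49 with quantile normalization.

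**Figure D3:**
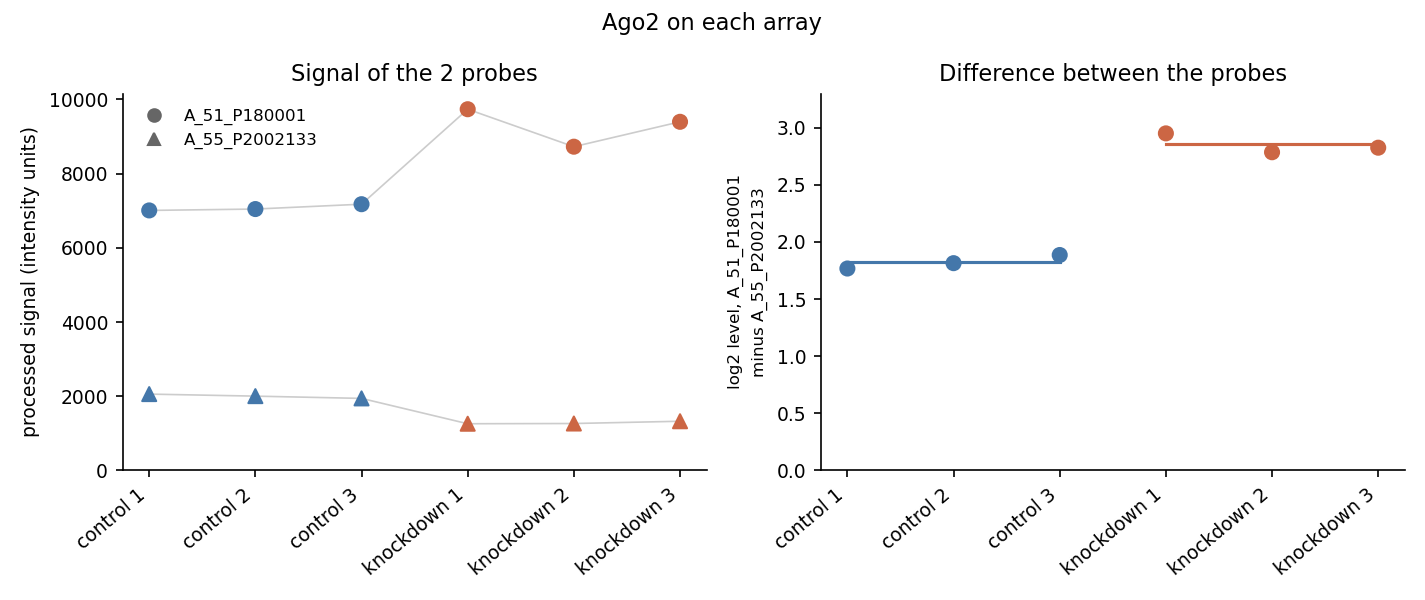
Left, processed signal of the 2 Ago2 probes on each array in intensity units; right, the log2 difference between the probes on each array with the group means as lines, for control (blue) and knockdown (orange). One probe rises on all 3 knockdown arrays while the other falls, so that the difference goes from 1.82 to 2.85.

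The other Argonautes showed no change past the test at any probe. Ago1, which binds guides but is known mainly for repression without cutting, had levels of -0.16, -0.19 and -0.10 on the control arrays and -0.09, -0.16 and -0.13 on the knockdown arrays. The groups overlapped, and the difference was 0.022 (SE 0.047, 95% interval -0.10 to 0.14, limma adjusted p = 0.776). At its other probe, of low signal, the difference was 0.16 (SE 0.22, 95% interval -0.39 to 0.71), so a change of 1.5-fold was not excluded there. Ago3 had levels of -3.78, -3.52 and -3.97 against -3.76, -3.54 and -3.74, with full overlap. Its difference was 0.077 (SE 0.13, 95% interval -0.26 to 0.42, limma adjusted p = 0.724). Ago4 had levels of -2.57, -2.77 and -2.61 against -2.58, -2.60 and -2.65, and the difference was 0.044 (SE 0.068, 95% interval -0.13 to 0.22, limma adjusted p = 0.689). The other Ago4 probe gave 0.18 (SE 0.20, 95% interval -0.34 to 0.69). The sign of these small differences was not fixed. With each array scaled by its median, which moved the median of all genes to -0.11, they were -0.095 for Ago1, -0.039 for Ago3 and -0.072 for Ago4.

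Eif2ak2, the gene of the kinase PKR, was read by 1 probe only and rose in knockdown cells. Its processed signals were 537, 563 and 624 intensity units on the control arrays and 981, 902 and 1109 on the knockdown arrays. The log2 levels were -0.49, -0.39 and -0.27 against 0.39, 0.33 and 0.60, so that the lowest knockdown array lay 0.60 above the highest control array. The means were -0.38 ± 0.11 (SD, n = 3) and 0.44 ± 0.14 (SD, n = 3). The change was 0.82 (SE 0.098, 95% interval 0.575 to 1.07, limma adjusted p = 0.00489), or 1.77-fold. It was called in 18 of 19 other fits and ranged from 0.71 to 0.88 over all 19. The exception was the fit with slide row as a block, where the change was 0.78 with a limma adjusted p of 0.0592. The array of row 1 alone stood 0.78 above the controls, and the arrays of row 2 stood 0.85 above them.

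**Figure D4:**
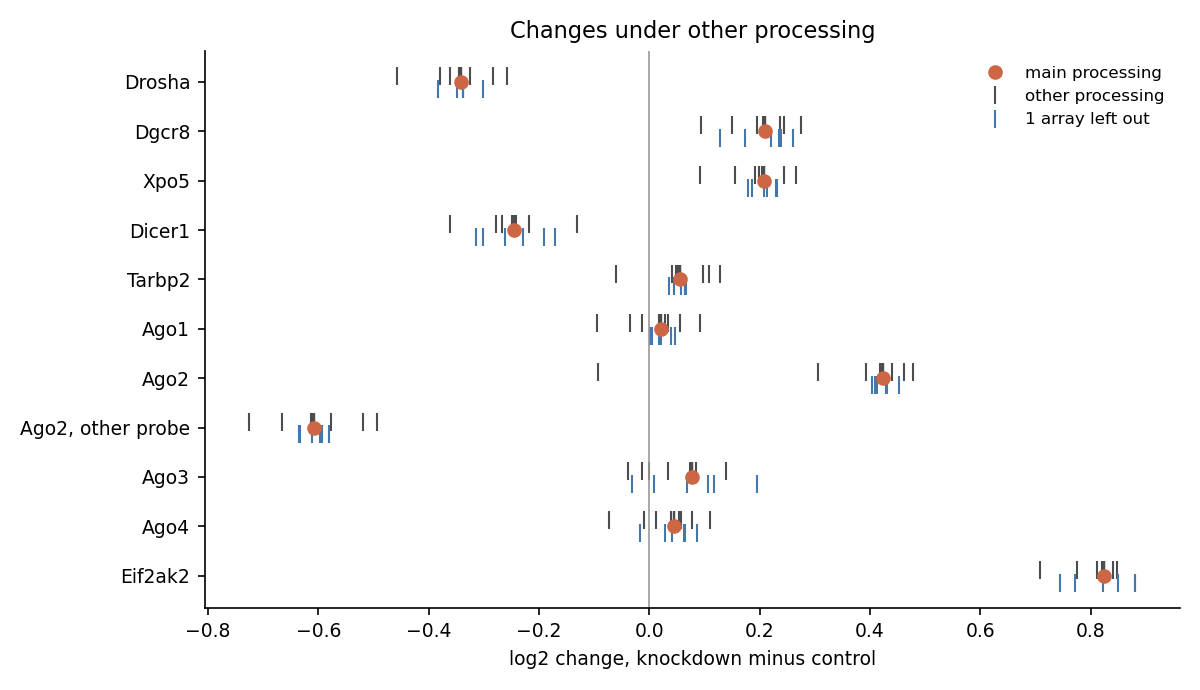
Change of each gene, knockdown minus control on the log2 scale, under the main processing (orange circle), under other processing (grey ticks) and with 1 array left out (blue ticks). The values of Eif2ak2, Drosha and the second Ago2 probe keep their sign, those of Ago1, Ago3 and Ago4 spread across 0, and the single Ago2 tick left of 0 is the mean of both its probes.

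Genes that work with this machinery were read from 9 further lists with 119 genes, of which 104 were tested. Of these 6 were called higher and 7 lower, which is 5.77% and 6.73% against 3.91% and 5.0% of all genes. The lists were chosen with earlier results of these data known, so these shares are no independent result. Mir99ahg, among the genes called higher, was well above background on no array. Another rule, the adjusted p alone, was passed by 22 upward and 22 downward, against 15.7% and 15.8% of all genes. The same shares over all genes stand beside the counts by the adjusted p in each list below. The median change of the 104 genes was 0.011. At the 1.5-fold minimum, no nuclear cofactor of the microprocessor and no other double-stranded RNA binding protein was called in the main fit. With median scaling, Ddx17 (-0.60) and Stau2 (-0.65) were called lower.

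Among 12 nuclear processing and export cofactors, 1 passed the adjusted p upward and 3 downward. The smallest p belonged to Ddx17, an RNA helicase of the microprocessor, with a change of -0.48 (SE 0.056, limma adjusted p = 0.00457), below the minimum fold. Among 14 partners of Dicer and factors of Argonaute loading, 2 were called lower and 2 more passed downward. Tsnax, whose product forms with translin the nuclease that clears the passenger strand, had levels of 3.46, 3.50 and 3.54 on the control arrays and 2.54, 2.47 and 2.52 on the knockdown arrays. It fell by 0.99 on the log2 scale (SE 0.045, limma adjusted p = 0.000478) with no overlap. P4ha1, a collagen prolyl hydroxylase subunit that is also known to modify Ago2, fell by 0.99 (SE 0.090, limma adjusted p = 0.00226).

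Among 28 GW182 proteins and decay effectors, which carry out repression once an Argonaute has bound, 7 passed the adjusted p upward and 3 downward. The called genes were Limd1, a LIM domain protein that bridges Argonaute and the cap-binding complex, with -0.76 (SE 0.054, limma adjusted p = 0.00126), the decapping enhancer Edc3 with -0.70 (SE 0.054, limma adjusted p = 0.0015) and Trim71, an RNA-binding repressor, with 0.61 (SE 0.050, limma adjusted p = 0.00169). Trim71 was not called without control replicate 1, where its change was 0.57, or with median scaling, where it was 0.49. Of 10 genes of microRNA tailing and turnover, 1 was called. Lin28b, which blocks maturation of let-7 microRNAs, had levels of 3.47, 3.43 and 3.57 on the control arrays and 2.66, 2.64 and 2.65 on the knockdown arrays. Its change was -0.84 (SE 0.051, limma adjusted p = 0.000846), and its other probe was also called, at -0.71.

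Eif2ak2 was next read beside the genes that act with it. Of 10 genes of the eIF2 kinase branch, 3 passed upward and 3 downward, and the called one was Eif2ak4, the amino acid sensing kinase GCN2. Its levels were 0.85, 0.73 and 0.84 on the control arrays and 0.13, 0.13 and 0.17 on the knockdown arrays, a change of -0.66 (SE 0.052, limma adjusted p = 0.00154). PKR and GCN2, kinases of the same substrate, were thus called in opposite directions. The list of 14 interferon-induced double-stranded RNA sensors also holds Mavs, which is an adaptor and not a sensor. Of its genes, 10 were tested, 3 were called higher and none lower, and the median change was 0.25. By the adjusted p alone, 4 passed upward and 2 downward. The downward genes, named after their values were seen, were Mavs, the adaptor of RIG-I and MDA5, at -0.58 (limma adjusted p = 0.00674) and Oas3 at -0.37 (limma adjusted p = 0.0467). Ifih1, the sensor MDA5, had levels of -4.41, -5.03 and -4.98 against -3.51, -3.67 and -3.69, and changed by 1.18 (SE 0.18, limma adjusted p = 0.0107). Oasl2, of the oligoadenylate synthetase family, changed by 0.88 (SE 0.064, limma adjusted p = 0.00134), and Ddx58, the sensor RIG-I, by 0.86 (SE 0.082, limma adjusted p = 0.00258). These sensors rose with Eif2ak2 on the knockdown arrays, each without overlap with the controls. Over all genes 27.7% lay above the controls in this way. The 4 genes of this list that did not pass were Oas2, Dhx58, Oasl1 and Zbp1 (limma adjusted p = 0.0711, 0.271, 0.554 and 0.817). Ifih1 was of low signal and its change depended on the background correction. It was 0.47 with normexp and the 75th percentile, past the adjusted p but not called. With slide row as a block Ifih1 changed by 1.30 (limma adjusted p = 0.0711). With the mean of both its probes Ddx58 changed by 0.67 (limma adjusted p = 0.0615), and its other probe was well above background on no array.

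**Figure D5:**
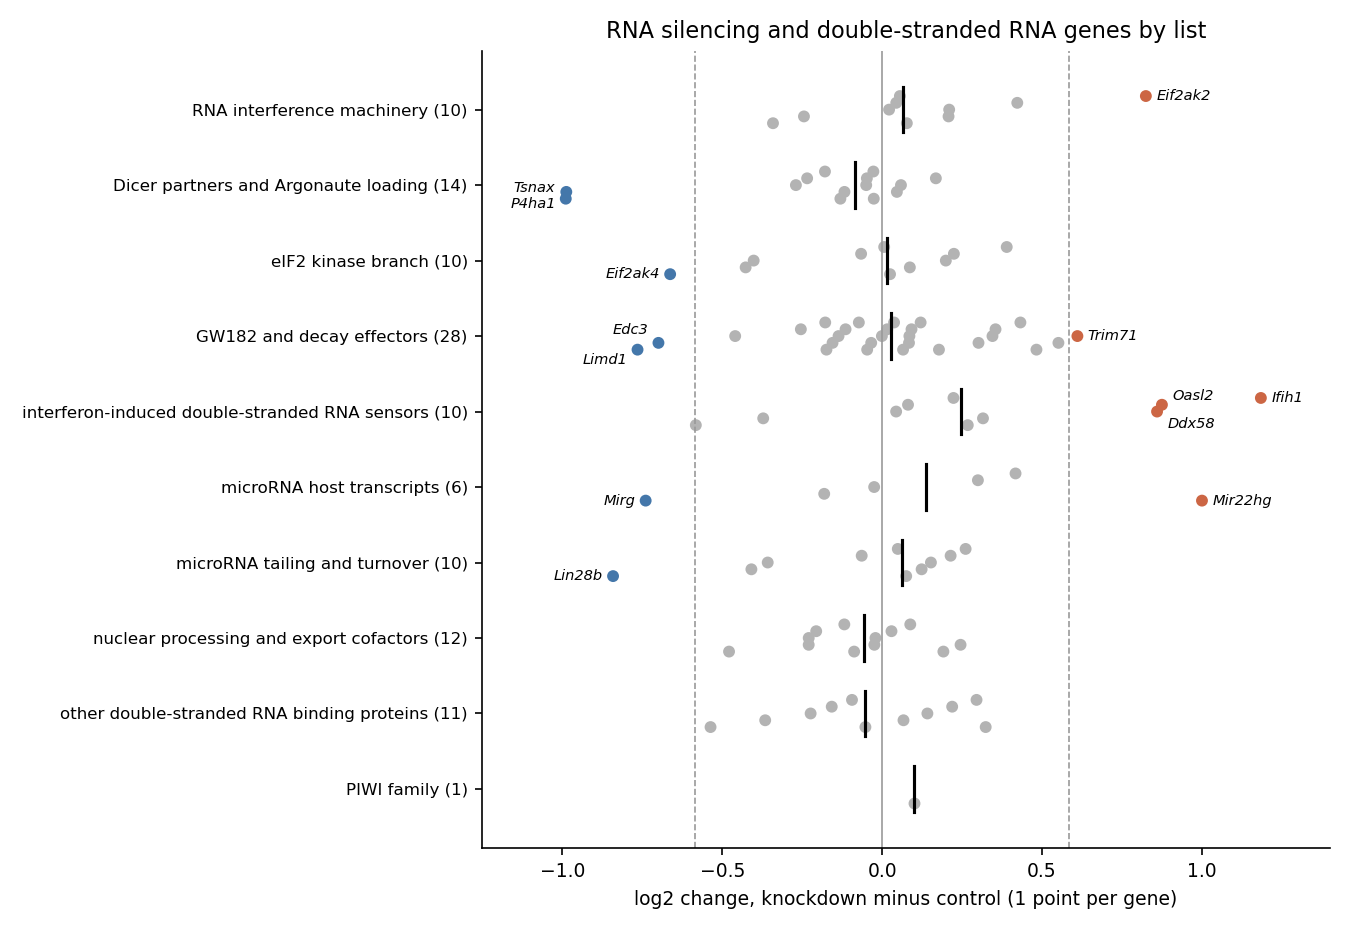
Change of each gene, knockdown minus control on the log2 scale, for the 10 genes of the RNA interference machinery and for 9 further lists (number of genes plotted in parentheses), with called genes coloured and named, list medians as black lines and dashed lines at a fold change of 1.5. The double-stranded RNA sensors Ifih1, Oasl2 and Ddx58 lie to the right with Eif2ak2; 2 microRNA host transcripts that no array had well above background are left out.

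Of 11 other double-stranded RNA binding proteins tested, 2 passed upward and 3 downward, none past the minimum fold. The smallest p was that of Stau2, a neuronal mRNA transport protein, at -0.54 (SE 0.064, limma adjusted p = 0.00488). Of 16 microRNA host transcripts 8 were tested. Mir22hg, the host of miR-22, had levels of -2.50, -2.75 and -2.74 on the control arrays and -1.84, -1.47 and -1.67 on the knockdown arrays, a change of 1.0 (SE 0.12, limma adjusted p = 0.0052), which was 0.82 with slide row as a block (limma adjusted p = 0.0511). Mirg, which hosts a large microRNA cluster of an imprinted region, changed by -0.74 (SE 0.054, limma adjusted p = 0.00131). Mir99ahg also passed the call rule, but no array had its probe well above background, so no fold is given. Of the PIWI family, known from the germ line, only Piwil2 was tested, and its value was 0.10 (SE 0.21, limma adjusted p = 0.775) with signal well above background on 3 of the 6 arrays. Mature microRNAs were not measured on these arrays, and mRNA levels do not give the amounts of the proteins.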

How the data were processed

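Total RNA was labelled with Cy3 and hybridised by the authors to Agilent SurePrint arrays. Per the file headers, Agilent Feature Extraction 10.10.1.1 gave each spot a background-corrected processed signal, deposited as a linear intensity. The deposited series matrix holds log2 values whose centring is unstated. Over 43557 probes with a single spot, its differences between arrays matched those of the log2 processed signal minus the 75th percentile within 0.00761, and it served as an alternative. Per the study's methods, low signals were filtered by percentile in GeneSpring, and no test was stated.

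Control spots and outlier-flagged spots were left out, processed signals were log2 transformed, each array's 75th percentile was subtracted, and replicate spots were averaged. Of 55681 probes, 245 had no value on some array. Probes were tested where all 3 arrays of either group reached that array's 20th percentile. Groups were taken from the sample titles and compared by lmFit and eBayes of limma 3.58.1 under R 4.3.3, two-sided and with no covariate. Benjamini-Hochberg adjustment ran over 42126 probes. Calls needed more than a 1.5-fold change at an adjusted p under 0.05. The fit was tested on simulated data. Symbols came from RefSeq by accession, and a gene was read from its brightest probe. The array annotation uses another genome build than the RefSeq tables, so gene positions are given only for promoter windows. The number of arrays limits the precision.

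Named genes are the 10 members with all their probes, Nfya and Nfyc, and from each other list up to 3 called genes with the largest change or, where none was called, the one with the smallest p. The members and lists were chosen with earlier results of these data known. Alternatives covered scaling, background correction, filters, variance models, blocks, probe choice, call rules and leaving out each array. Normexp (offset 50) was run on the median signal of a spot, since the tables used here hold no mean signal.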

Additional observations from a re-analysis of the deposited data

How the results depend on the processing

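The counts and the changes of the 10 genes were recomputed under 21 other settings, 13 of processing, 2 call rules and 6 that left out an array. Second probes have no value as a mean of probes, Mir99ahg and Piwil2 have none where a filter left them out, and Nfya and Nfyc were not recomputed. Eif2ak2 was no longer called with slide row as a block (0.78, limma adjusted p = 0.0592), or, at an unaltered change of 0.82, with a fold change above 2, so 0 of the 10 genes were called higher there. With no minimum fold, Drosha (-0.34), Xpo5 (0.21) and Ago2 (0.42) were called too, which gave 3 higher and 1 lower. Small differences reversed their sign. With median scaling they were -0.061 for Tarbp2, -0.095 for Ago1, -0.039 for Ago3, -0.072 for Ago4 and -0.016 for Piwil2. With quantile normalization they were -0.013 for Ago3, -0.010 for Ago4 and -0.015 for Piwil2. Ago1 was -0.034 with normexp and the 75th percentile, and -0.013 with normexp and quantile normalization, where Piwil2 was -0.0050. Ago3 was -0.0011 with slide row as a block, and Ago2 was -0.093 as the mean of its probes, by construction since they oppose each other. The cause of the other reversals was not tested.

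Over all genes, 644 were called higher and 824 lower. The count higher was 382 with median scaling and 278 with normexp and the 75th percentile, and the counts were 292 and 549 with normexp and quantile normalization. Lower calls were 56.1% of all calls, 75.5% with median scaling and 67.7% with normexp and the 75th percentile. With no minimum fold there were 2597 higher and 2602 lower calls, and with a fold change above 2 there were 181 and 286. In the 9 further lists, 22 were higher and 22 lower with no minimum fold, 3 and 0 with a fold change above 2, and 3 were higher with slide row as a block. With median scaling 10 were lower, Ddx17 (-0.60) and Stau2 (-0.65) among them, and Trim71 was not called (0.49).

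Leaving out 1 array at a time gave 548 to 607 genes higher and 747 to 831 lower, 5 to 6 and 7 to 8 in the further lists, and each time 1 member higher and 0 lower. Eif2ak2 ranged from 0.74 to 0.88, Drosha from -0.38 to -0.30, Xpo5 from 0.18 to 0.23 and the brightest Ago2 probe from 0.40 to 0.45. Ranges that crossed 0 were those of Ago4 (-0.016 to 0.086), negative without control replicate 2, Ago3 (-0.031 to 0.20), negative without control replicate 3, Piwil2 (-0.060 to 0.26), negative without control replicate 3 or knockdown replicate 1 (-0.055), and the other Ago1 probe (-0.0065 to 0.38), negative without knockdown replicate 3. With the replicate number as a block, 518 genes were called higher and 765 lower and no call of a named gene changed, while Xpo5 had a limma adjusted p of 0.125. Whether the numbers pair the samples cannot be decided from 3 arrays per group. Deviations of same-numbered arrays correlated at 0.018, 0.067 and 0.0025. Each control array's best match was its own number for replicates 1 and 2 and not for 3. The standard errors of the second Ago1 and Ago4 probes, Piwil2, Ago3 and Ifih1 were the widest among the standard errors printed here, and the cause was not tested.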

Other observations

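Probes of one gene that move apart were not particular to Ago2. Of 3662 genes with several probes well above background on all 6 arrays, 47 (1.28%) had probes past the limma adjusted p in both directions. One gene had probes called in both directions, Gnas, an imprinted locus with several alternative first exons, whose probes ranged from -1.17 to 1.03 on the log2 scale. Other genes with 1 probe called and another past the adjusted p in the opposite direction were Ttpal (-1.03 to 0.44), Rab3c (-0.32 to 0.75), a vesicle GTPase of neurons, and Rbbp6 (-0.38 to 0.70), a ubiquitin ligase. Ttpal, Rab3c and Rbbp6 were picked after their values were seen. The parts of these transcripts read by each probe were not analysed here.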
